A study of Rattus norvegicus with 138 samples.

Results

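Motile cilium axoneme genes were taken from the count tables of the brainstem by symbol. They were the genes whose name begins with Dnah, Dnai, Cfap, Tekt, Rsph or Drc followed by a digit, together with Spag6, Spag16, Spag17, Hydin, Dynlrb2, Ccdc39, Ccdc40, Daw1, Armc4, Ttc25, Wdr63 and Wdr66. Of 32883 genes per table, 67 met this rule. Foxj1, a transcription factor that switches on motile cilia, was also named by the rule and was not analysed here.

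The axoneme is the microtubule core of a motile cilium. Outer and inner dynein arms on the doublet microtubules produce the sliding force, the nexin-dynein regulatory complex ties neighbouring doublets together, radial spokes pass signals from the central apparatus to the arms, and tektins with other microtubule inner proteins stiffen the doublet wall. In the brain these structures are known from the ependymal cells that line the ventricles and from the epithelium of the choroid plexus, and several of the same proteins also serve in sperm tails. By role, the 67 genes comprised 8 outer dynein arm chains, 3 genes of outer arm docking and import, 6 inner dynein arm chains, 9 radial spoke genes, 8 of the central apparatus, 5 of the nexin-dynein regulatory complex and the Ccdc39 and Ccdc40 ruler that spaces the spokes, 10 tektins and microtubule inner proteins, and 18 genes whose place is less certain.

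RNA was sequenced from micropunches of 3 autonomic nuclei, the nucleus of the solitary tract (NTS), which lies beside the fourth ventricle, and the caudal and rostral ventrolateral medulla (CVLM and RVLM), which lie ventrally, away from it. The rats were females of the spontaneously hypertensive strain (SHR) and of the normotensive Wistar Kyoto strain (WKY), sampled over 5 ages, namely 8, 10, 12, 16 and 24 wk, to follow hypertension from before its onset to its established phase. From the youngest to the oldest group, WKY numbered 5, 4, 3, 3 and 3 and SHR numbered 5, 5, 6, 6 and 6, and each of the 46 rats gave 1 library per region from punches of both sides, so that ages are different animals. WKY is a separate inbred strain, and a strain difference therefore covers every allele that differs between the strains and not blood pressure alone. The libraries, 46 per region, held 5904581 to 17889417 counts, with a median of 10143036.

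The labelled nuclei were checked against markers of medullary autonomic neurons. Dbh, the enzyme that makes noradrenaline, was present in every library, where its count, scaled to a library total of 1000000 (CPM), had a median of 75.0 in the NTS, against 81.8 for the CVLM and 9.20 for the RVLM. Pnmt, the enzyme that makes adrenaline, had medians of 3.95, 40.7 and 18.8 CPM in the same order. The sum of 9 ependyma markers that are not among the axoneme genes had a median of 43.8 CPM in the NTS, against 32.7 CPM for the CVLM and 30.1 CPM for the RVLM. Of these, Tmem212 was at 0 in 37 CVLM and 38 RVLM libraries of 46 and in 2 NTS libraries. Not every marker differed in this way. Rarres2, another of the 9, had medians of 11.2 CPM (WKY) and 10.2 CPM (SHR) in the NTS. Its medians were 11.8 and 11.3 CPM in the CVLM and 10.7 and 8.68 CPM in the RVLM. In the NTS, 5 WKY libraries stood apart by choroid plexus markers, summed over 10 genes. They reached 276 and 1884 CPM in rats 2 and 5 at 8 wk, 123 CPM in rat 4 at 10 wk, and 4950 and 889 CPM in rats 2 and 3 at 12 wk, while no other NTS library exceeded 13.7 CPM. Most counts over all axoneme genes that rest on these 5 libraries are given with and without them, as are values of some single genes. Counts by role and counts for other gene lists are given with these libraries only.

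Promoters are shown for 5 of the genes because RFX factors, which bind motifs with the half-site GTTGCC, are known regulators of ciliary genes. Each sequence spans 250 bases before to 50 bases after the gene's start in RefSeq (GRCr8, whereas the counts were made on rn6). Capitals mark matches to GTTGCC or GTTGCTA on either strand, and the second of these motifs was chosen after the sequences had been seen. Drc1, of the nexin-dynein regulatory complex, Cfap161, a microtubule inner protein, and Dynlrb2, a roadblock-type dynein light chain, were each higher in the NTS. Cfap206, a radial spoke base protein, differed between the strains, and Cfap36 differed little between regions.
Drc1: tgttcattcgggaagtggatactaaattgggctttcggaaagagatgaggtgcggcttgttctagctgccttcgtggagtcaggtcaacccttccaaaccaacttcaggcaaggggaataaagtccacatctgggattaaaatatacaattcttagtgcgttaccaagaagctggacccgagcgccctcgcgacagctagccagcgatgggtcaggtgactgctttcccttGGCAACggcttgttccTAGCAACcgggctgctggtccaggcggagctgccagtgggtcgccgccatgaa
Cfap161: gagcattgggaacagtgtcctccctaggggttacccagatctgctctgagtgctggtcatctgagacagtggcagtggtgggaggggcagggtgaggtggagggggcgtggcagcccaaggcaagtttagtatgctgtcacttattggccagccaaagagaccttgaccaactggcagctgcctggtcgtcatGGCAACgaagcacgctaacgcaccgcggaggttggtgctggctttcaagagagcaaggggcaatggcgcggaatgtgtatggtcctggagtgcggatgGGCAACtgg
Dynlrb2: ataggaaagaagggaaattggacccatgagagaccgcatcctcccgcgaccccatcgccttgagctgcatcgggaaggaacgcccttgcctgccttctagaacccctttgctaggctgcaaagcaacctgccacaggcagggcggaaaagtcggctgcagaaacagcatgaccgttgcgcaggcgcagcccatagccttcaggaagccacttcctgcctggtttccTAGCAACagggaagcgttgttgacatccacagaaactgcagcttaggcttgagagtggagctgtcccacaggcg
Cfap206: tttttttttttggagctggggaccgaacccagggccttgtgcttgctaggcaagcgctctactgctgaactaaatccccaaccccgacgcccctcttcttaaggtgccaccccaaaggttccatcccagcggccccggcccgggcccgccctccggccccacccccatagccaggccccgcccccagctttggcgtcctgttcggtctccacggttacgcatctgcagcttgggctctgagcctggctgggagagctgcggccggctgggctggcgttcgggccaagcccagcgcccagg
Cfap36: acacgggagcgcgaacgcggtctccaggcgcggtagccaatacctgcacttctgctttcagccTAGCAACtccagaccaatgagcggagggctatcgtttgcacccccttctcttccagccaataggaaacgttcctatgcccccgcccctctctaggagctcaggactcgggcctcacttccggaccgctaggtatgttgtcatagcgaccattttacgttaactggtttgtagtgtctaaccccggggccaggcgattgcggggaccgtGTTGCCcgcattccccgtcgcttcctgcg
These promoters lie at chr6:31779207-31779506 on the minus strand, chr1:147177772-147178071 on the minus strand, chr19:61428830-61429129 on the plus strand, chr5:54095334-54095633 on the minus strand and chr14:107192357-107192656 on the minus strand. Drc1 and Cfap36 held both motifs, Cfap161 held GTTGCC at 2 places, Dynlrb2 held GTTGCTA, and Cfap206 held neither. A promoter was matched for 46 of the 67 genes, 45 by symbol and 1, Wdr63, by a synonym, and 21 had no entry. GTTGCC was found in 14 of the 46 (30.4%) and in 12.2% of all 33469 promoters of this length. GTTGCTA was found in 15 (32.6%) against 3.58%, and either of them in 24 (52.2%) against 15.3%. The FOX core GTAAACA was found in 2 (4.35%) against 3.78%. Of the 28 matched genes that exceeded the RVLM over 2-fold in the NTS, 9 held GTTGCC, 10 held GTTGCTA and 0 held GTAAACA. These counts describe the sequences only.

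Axoneme genes were higher in NTS punches than in either part of the ventrolateral medulla. Without any filter on low values, the mean CPM peaked in the NTS for 60 of the 67 genes, while 3 peaked in the CVLM and 4 in the RVLM. The median over libraries was above 1 CPM for 48 genes in the NTS, against 26 for the CVLM and 24 for the RVLM. Summed over the 49 genes with an assigned role, CPM ranged from 119 to 573 in the NTS, while the CVLM ranged from 68.9 to 110 and the RVLM from 68.0 to 96.3, so that the NTS did not overlap with the other regions. The medians were 221, 85.3 and 77.4 CPM in that order. In punches of tissue, fewer cells of a type and less RNA per cell cannot be told apart. CPM values are not per gene length, and levels are compared here only within a gene.

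Differences between regions were tested in edgeR over all libraries with the rat as a block, on the 52 axoneme genes that passed the expression filter in at least 1 region among 14043 genes. Between NTS and RVLM, 44 were higher in the NTS, 5 were lower and 3 were not called (background among all genes tested 35.8% higher and 36.9% lower). Between NTS and CVLM, 42 were higher, 3 lower and 7 not called (background 33.9% and 32%). The median log2 fold change of the axoneme genes was 1.70 and 1.67, against -0.01 and 0.01 over all genes. In each of these comparisons 35 axoneme genes were over 2-fold higher in the NTS, where 6.72% and 4.36% of all genes were. An increase of over 8-fold was found in 15 and 12 axoneme genes, against 1.08% and 0.577% of all genes. Between CVLM and RVLM, 17 were higher in the CVLM, 10 were lower and 25 were not called (background 25.8% and 28.2%), with a median of 0.14.

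The filter weighs on these counts, because a gene that passed it only through a high level in the NTS had to differ. For the 27 genes that passed in all 3 regions, 21 were higher in the NTS than the RVLM and 4 were lower, with a median log2 fold change of 0.86, and 19 were higher and 3 lower than in the CVLM, with a median of 0.71. For the 21 genes that passed in the NTS alone, 20 were higher against either region, and the medians were 3.68 and 3.09. The plot of all regional differences shows each gene with its role.

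**Figure D1:**
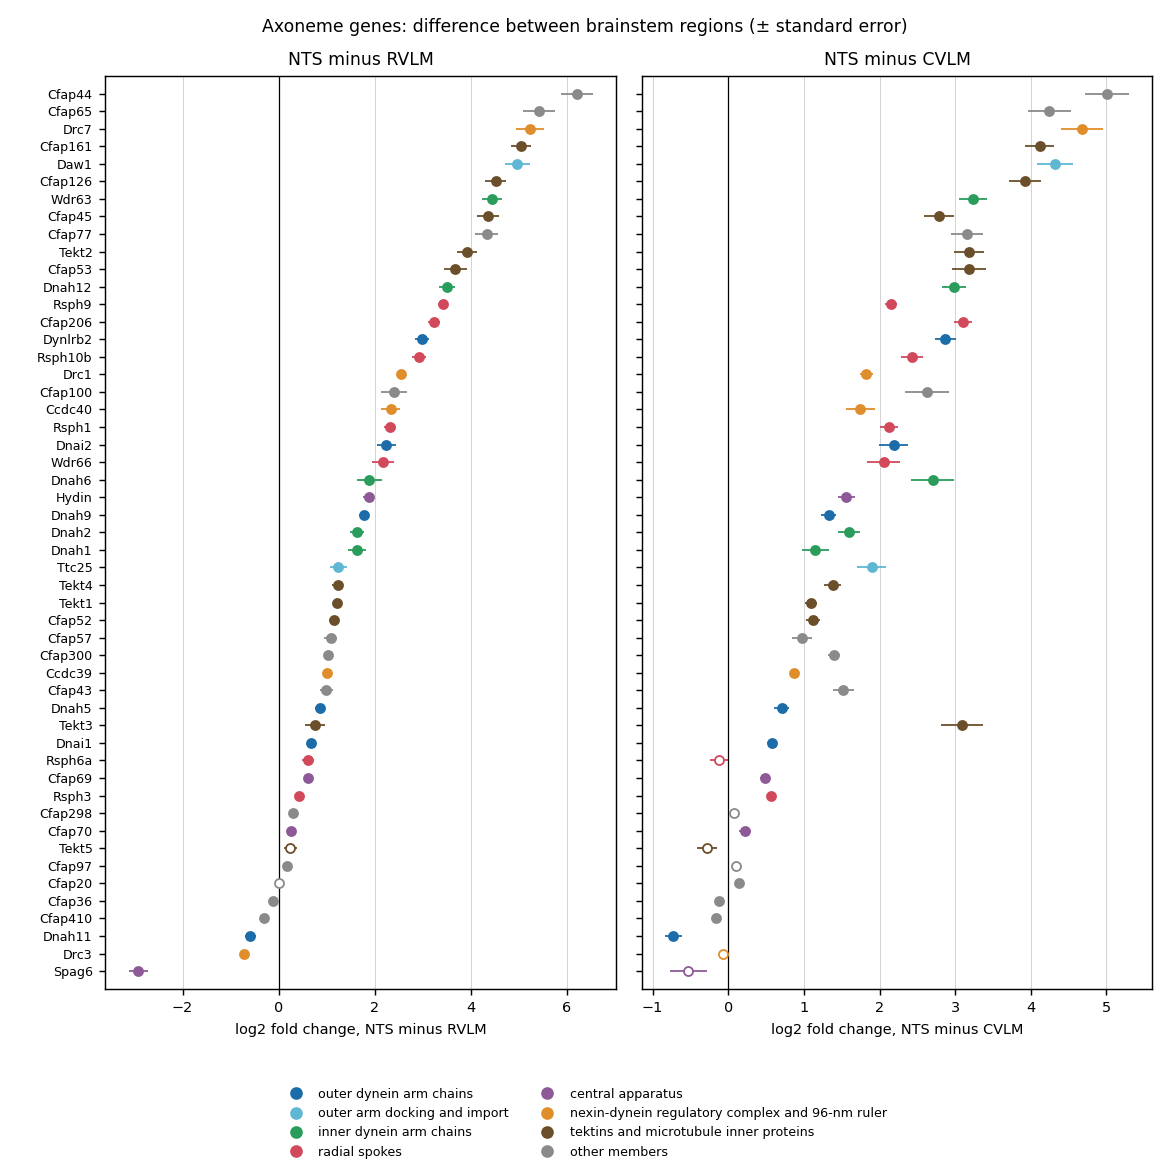
Log2 fold changes of 51 axoneme genes between regions (edgeR, libraries of 46 rats), 1 row per gene, coloured by role, with bars for the standard error and filled points for an adjusted p under 0.05. Most points lie to the right of 0 in both NTS comparisons, with Spag6, Drc3, Dnah11, Cfap410 and Cfap36 to the left against the RVLM. Rsph4a, which was at 0 in most NTS libraries, was tested and is not drawn.

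The smallest adjusted p belonged to a radial spoke gene. Rsph9, a subunit of the spoke head, ranged in the NTS from 23.5 to 69.4 CPM in WKY (median 39.1) and from 22.2 to 54.7 CPM in SHR (median 36.9). In the RVLM it ranged from 0.832 to 7.52 CPM in WKY (median 2.34) and from 1.38 to 7.16 CPM in SHR (median 3.88). NTS libraries were higher than RVLM libraries without overlap in both strains, and the CVLM, at 3.53 to 13.7 CPM over both strains, lay between and overlapped with the RVLM. The mean was 38.5 ± 10.7 CPM (SD, n = 46) in the NTS and 3.48 ± 1.79 CPM in the RVLM, a log2 fold change of 3.42 ± 0.09 (SE, edgeR adjusted p = 1.1e-48) with the NTS higher in 46 of 46 rats. Rsph9 also had the smallest adjusted p between NTS and CVLM (2.15, edgeR adjusted p = 1.2e-37) and between CVLM and RVLM (1.27, edgeR adjusted p = 1.4e-21). Of the 8 radial spoke genes tested, 7 were higher in NTS than RVLM and 0 lower. The remaining one, Rsph4a, was not called, and its fold change is not given. It was at 0 in 12 of 18 WKY and 19 of 28 SHR libraries of the NTS and reached 8.19 CPM in another. Rsph4a stays in the counts and medians of the genes tested.

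Dnah12, an inner arm heavy chain, ranged in the NTS from 4.28 to 22.6 CPM in WKY and from 2.66 to 18.5 CPM in SHR, with medians of 8.86 and 8.38 CPM. In the RVLM its range was 0 to 3.07 CPM in WKY and 0.109 to 4.47 CPM in SHR. The highest RVLM library, in SHR, exceeded the lowest NTS library of either strain, and that of WKY exceeded the lowest NTS library of SHR, so that the ranges overlapped at their ends. The means were 10.1 ± 4.77 and 0.875 ± 0.86 CPM, a log2 fold change of 3.52 (edgeR adjusted p = 7.1e-32), higher in 46 of 46 rats. Wdr63, an intermediate chain of an inner arm dynein, had means of 4.81 and 0.207 CPM (4.44, edgeR adjusted p = 2.2e-32). All 5 inner arm chains tested were higher in the NTS, with a median log2 fold change of 1.89.

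The outer arm chains tested had a median log2 fold change of 1.32. Dnai1, an intermediate chain of the outer arm, ranged in the NTS from 5.28 to 12.7 CPM in WKY and from 4.85 to 10.3 CPM in SHR. Its RVLM range was 3.45 to 5.50 CPM in WKY and 2.75 to 5.84 CPM in SHR, which overlapped with the low end of the NTS. The means were 7.76 ± 1.79 and 4.36 ± 0.743 CPM (log2 fold change 0.67, edgeR adjusted p = 1.4e-15), and within a rat the NTS was higher in 46 of 46. Dynlrb2 had means of 7.01 ± 6.25 and 0.715 ± 0.409 CPM (2.98, edgeR adjusted p = 3.8e-32). Of 6 outer arm chains tested, 5 were higher and 1, the heavy chain gene Dnah11, was lower in the NTS, at 2.35 against 3.00 CPM in the RVLM (-0.59, edgeR adjusted p = 2.6e-06) and by -0.73 against the CVLM (edgeR adjusted p = 2.2e-08). Both docking and import genes tested were higher. Ttc25, part of the docking complex, had means of 1.90 ± 1.11 and 0.708 ± 0.487 CPM (1.24, edgeR adjusted p = 3.2e-09), with the NTS higher in 41 of 46 rats.

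**Figure D2:**
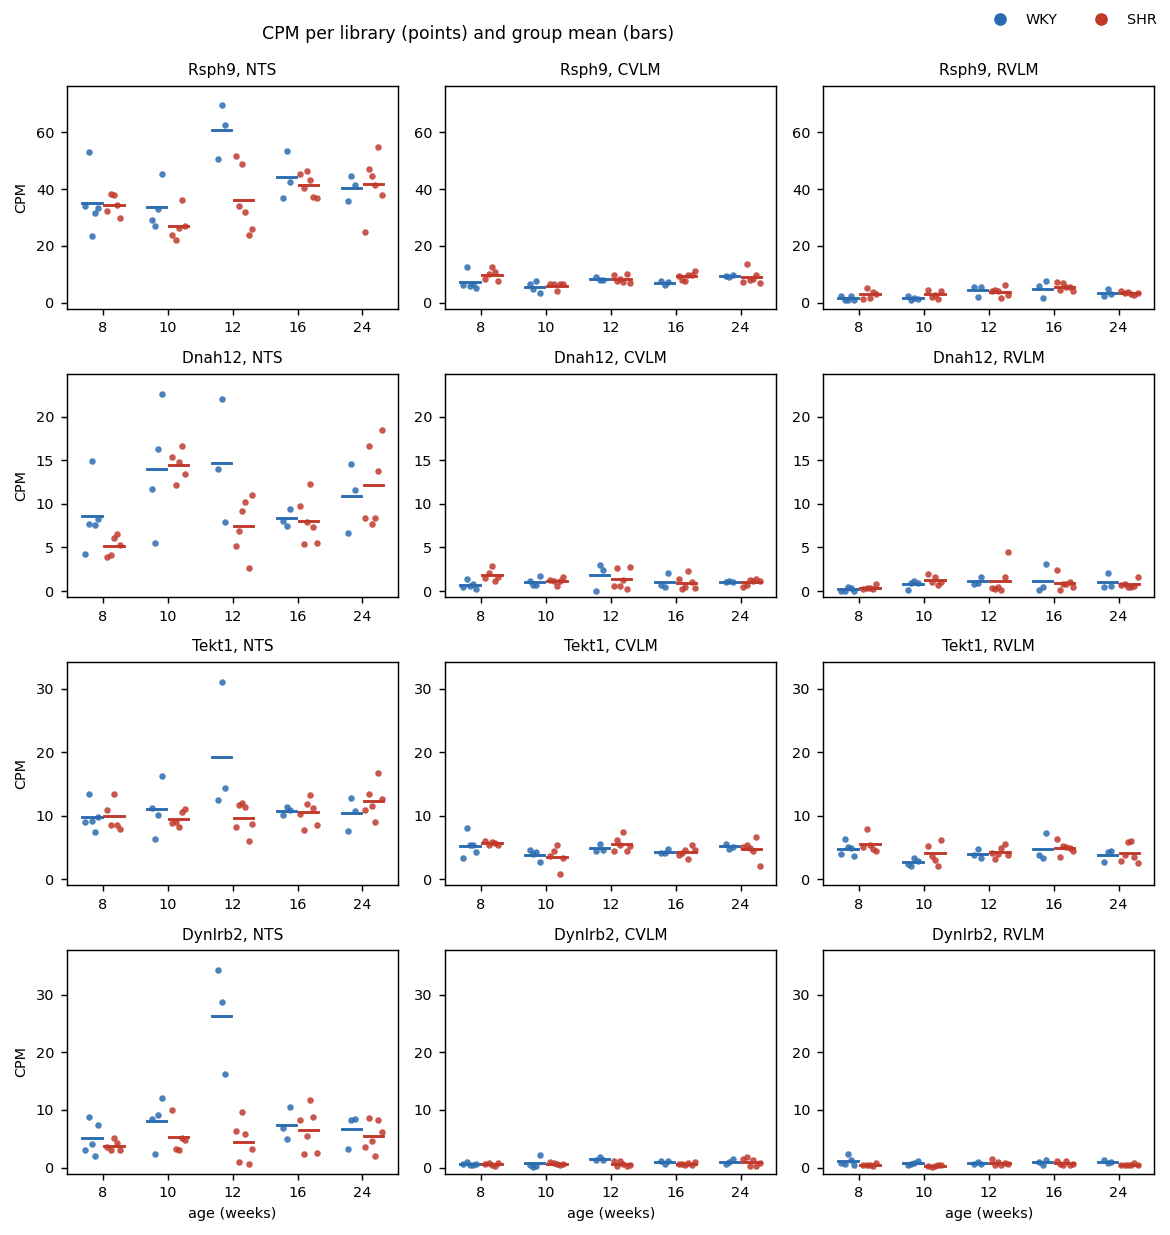
CPM of Rsph9, Dnah12, Tekt1 and Dynlrb2 in every library by region and age (weeks), with WKY and SHR in separate colours and bars for group means. NTS points of Rsph9, Dnah12 and Dynlrb2 lie mostly above those of the CVLM and RVLM, and the WKY rats at 12 wk hold the highest NTS values of Tekt1 (31.1 CPM) and Dynlrb2 (34.2 CPM).

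Within the nexin-dynein regulatory complex the members went in different directions. Drc1 ranged from 5.45 to 21.0 CPM in WKY and 7.11 to 18.5 CPM in SHR in the NTS, and from 0.391 to 2.65 CPM and 0.79 to 3.55 CPM in the RVLM, without overlap. Its log2 fold change was 2.55 (edgeR adjusted p = 1e-39), with means of 11.2 ± 3.71 and 1.76 ± 0.735 CPM. Drc3, a leucine-rich repeat subunit of the same complex, was lower in the NTS, at 8.01 ± 1.65 against 11.8 ± 2.18 CPM in the RVLM (-0.73, edgeR adjusted p = 2.4e-23), and was lower in 43 of 46 rats. It was also lower in the CVLM than in the RVLM in 46 of 46 rats (-0.66, edgeR adjusted p = 1.6e-20), and the difference between NTS and CVLM was not called. Ccdc39, a subunit of the ruler, was higher in the NTS at 14.3 against 6.13 CPM (1.02).

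Tektins and microtubule inner proteins exceeded the RVLM level in the NTS for 9 of the 10 tested, with a median log2 fold change of 2.45. Tekt1 had means of 11 ± 3.83 and 4.36 ± 1.32 CPM (1.21, edgeR adjusted p = 1.4e-23), higher in 46 of 46 rats. Cfap161 had means of 3.78 ± 2.95 and 0.108 CPM (5.05, edgeR adjusted p = 3.5e-36). Tekt5, a tektin known from sperm, was not called (0.24, edgeR adjusted p = 0.11). Tekt3 was lower in the CVLM than in the RVLM (-2.34, edgeR adjusted p = 1.2e-10). The largest fitted differences between NTS and RVLM were those of Cfap44 (6.21), Cfap65 (5.43), Drc7 (5.24), Cfap161 (5.05) and Daw1 (4.98). They rest on few counts in the RVLM, namely 4 counts of Cfap44, 13 of Cfap65, 22 of Drc7, 55 of Cfap161 and 41 of Daw1 over 46 libraries, against 717 to 1898 counts in the NTS, and their exact size depends on the prior count of the fit.

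The central apparatus was mixed. Hydin, a giant protein of one central microtubule's projections, was higher in the NTS at 5.18 against 1.27 CPM (1.88). Cfap69, a central apparatus protein, had means of 11.4 ± 2.82 and 6.79 ± 1.89 CPM (0.61, edgeR adjusted p = 2.2e-14), and was higher in 42 of 46 rats. Spag6, of the same structure, was lower in the NTS, with means of 0.342 ± 0.285 and 1.91 ± 0.717 CPM (-2.93, edgeR adjusted p = 9.2e-23), and lower in the CVLM than in the RVLM (-2.40, edgeR adjusted p = 3.7e-19). Its near-identical copy Spag6l makes the assignment of its counts uncertain.

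A few genes differed little between regions. Cfap36 (-0.12 against the RVLM, edgeR adjusted p = 0.00049), Cfap410 (-0.31, edgeR adjusted p = 4.1e-12) and Cfap20 (0.02, not called) lay near 0, and Cfap298 (0.30) and Cfap97 (0.16) were slightly higher in the NTS. Against the CVLM, Cfap36 fell by 0.12 and Cfap410 fell by 0.16 on the log2 scale. For Cfap36 the direction was not the same in CPM, which was higher in the NTS in 30 of 46 rats. Between CVLM and RVLM, Rsph9, Drc1 (0.72, edgeR adjusted p = 1.3e-09) and Rsph6a (0.73, edgeR adjusted p = 5.7e-07) had the smallest adjusted p among those higher in the CVLM.

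Other gene lists of the pathway were set beside the axoneme genes in the same fit. Between NTS and RVLM, the NTS was higher for 17 and lower for 2 of 21 other axoneme genes tested, higher for 6 and lower for 2 of 10 dynein arm assembly factors, and higher for 7 of 8 regulators of multiciliated cells with 0 lower. Intraflagellar transport genes, which build all cilia, were higher for 16 and lower for 2 of 21, with a median log2 fold change of 0.34, and primary cilium genes were higher for 16 and lower for 4 of 24, with a median of 0.26. Cytoplasmic dynein genes were higher for 1 and lower for 7 of 10. Ependyma markers were higher in the NTS for 6 and lower for 1 of 8 tested, with a median of 3.05, and choroid plexus markers were higher for 5 and lower for 2 of 8. Their part in the axoneme differences was not tested. With the rats of the 5 libraries rich in choroid plexus markers left out, 48 axoneme genes were called between NTS and RVLM and 46 between NTS and CVLM, against 49 and 45 with them.

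Strain differences were tested in each region by age, which asks when the SHR departs from the WKY as hypertension develops. In the NTS, 24 of 51 axoneme genes tested were lower in SHR than in WKY at 12 wk and 0 were higher, where 2.09% of all 13793 genes were called lower. At the other ages few were called, and those were lower. They numbered 2 at 8 wk, where 3.21% of all genes were lower and 5.79% were called in either direction, and 1 at 10 wk (1.99% lower, 4.44% in either direction). Another 1 was called at 16 wk (0.892% lower, 1.73% in either direction) and 1 more at 24 wk (1.31% lower, 2.46% in either direction). At 12 wk, 46 of the 51 were lower in sign and 37 had an unadjusted p under 0.05. The median log2 fold change was -1.27, against 0.03 over all genes. The 24 called genes ranged from -3.43 to -0.68.

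The count rested on 1 of the 3 WKY rats. Without rat 2 of the WKY group at 12 wk, 3 of the 51 were called lower (background 0.856%), namely Cfap206, Dynlrb2 and Daw1, while 44 were lower in sign, 20 had an unadjusted p under 0.05 and the median was -0.61. That library held choroid plexus markers at 4950 CPM. Without the 5 libraries rich in these markers, the same 3 were called (background 0.49%), 46 were lower in sign, 15 had an unadjusted p under 0.05 and the median was -0.67. That fit left a single WKY library at 12 wk, rat 1, which is assumed to vary like the other groups. When each age was fitted on its own, Cfap206, Cfap77 and Ttc25 were called.

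Of the 3 WKY rats at 12 wk, rat 2 had the highest sum of role-listed axoneme genes, of ependyma markers and of choroid plexus markers. In WKY rats 1, 2 and 3 at 12 wk the summed CPM was 361, 573 and 338 for the 49 role-listed genes, 86.9, 116 and 65.3 for the 9 ependyma markers, and 10.6, 4950 and 889 for the choroid plexus markers. In the 6 SHRs at 12 wk these sums were 119 to 254, 26.9 to 51.7 and 3.55 to 9.02 CPM. In WKY of the other ages, role-listed genes summed to 183 to 393 CPM and ependyma markers to 32.7 to 56.4 CPM, below each of the 3 WKY libraries at 12 wk for the markers. Rat 1, the WKY library at 12 wk without raised choroid plexus markers, had a sum of role-listed genes and of ependyma markers above every SHR at that age. With all libraries in the fit, 4 of 8 ependyma markers and 7 of 8 choroid plexus markers were called lower in SHR in the NTS at 12 wk, with 0 higher. The part of either tissue in the strain difference was not tested.

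**Figure D3:**
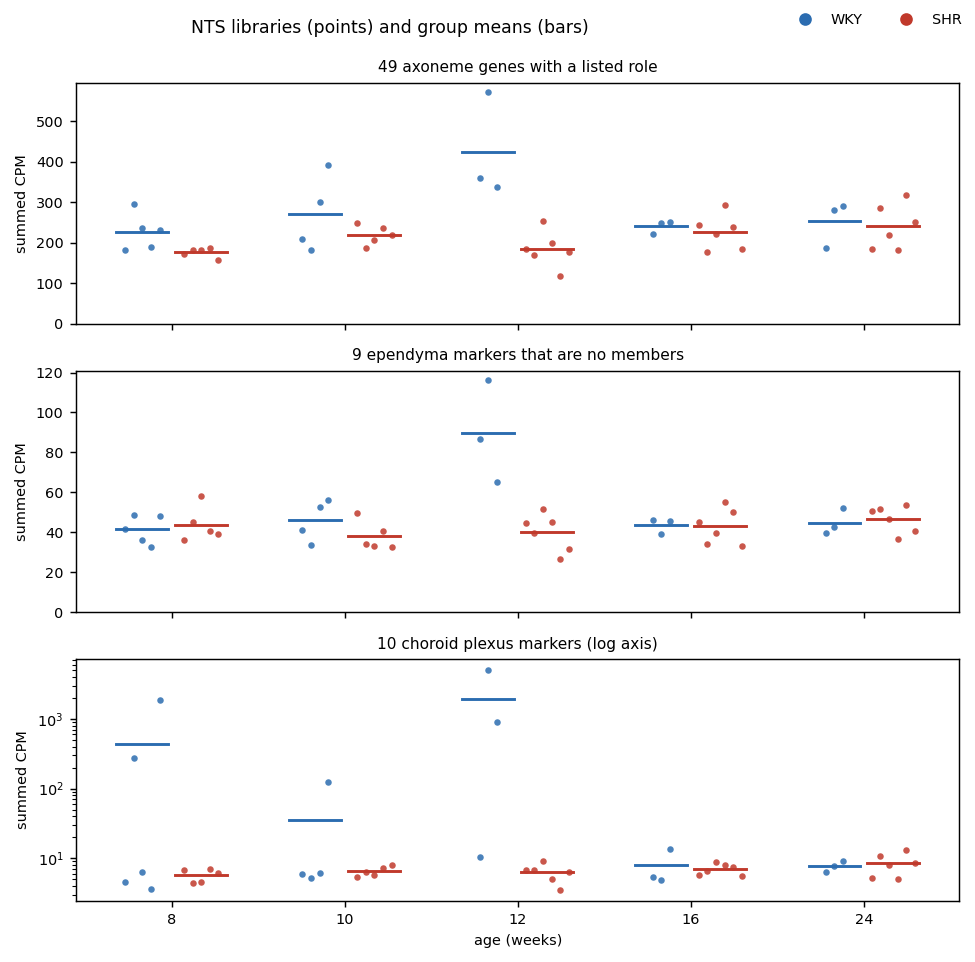
Summed CPM in each NTS library by age and strain, for the 49 role-listed axoneme genes, 9 ependyma markers and, on a log axis, 10 choroid plexus markers. The 3 WKY libraries at 12 wk stand at 338 to 573 CPM for axoneme genes and at 65.3 to 116 CPM for ependyma markers, and 5 WKY libraries exceed 100 CPM of choroid plexus markers.

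Of the tektins and microtubule inner proteins, 8 of 10 tested were called lower, with a median log2 fold change of -1.58, and none of them was called without rat 2. Differences between roles were not tested. Tekt1 was at 12.5, 31.1 and 14.3 CPM in the WKY rats and at 8.24, 11.7, 12.1, 11.3, 5.99 and 8.67 CPM in the SHRs. All 6 SHRs were below the lowest WKY rat, and the WKY spread was set by rat 2. The log2 fold change was -0.96 ± 0.23 (edgeR adjusted p = 0.01), and -0.45 without rat 2. Tekt3 (means 0.555 against 3.58 CPM, -2.63, edgeR adjusted p = 0.0096) was also among those lower. Its log2 fold change was -2.20 without rat 2 and -2.39 without the 5 libraries rich in choroid plexus markers.

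Dynlrb2 was at 34.2, 28.6 and 16.2 CPM in the WKY rats and at 6.35, 0.979, 9.70, 5.80, 0.666 and 3.19 CPM in the SHRs. Every SHR was below every WKY rat, and here the highest value was that of rat 1. The means were 26.4 ± 9.22 (SD, n = 3) and 4.45 ± 3.49 CPM (n = 6), a log2 fold change of -2.54 ± 0.54 (edgeR adjusted p = 0.0023). It remained called without rat 2 (-2.50, edgeR adjusted p = 0.015). Without the 5 libraries the log2 fold change was -2.99, where the single WKY library left was rat 1, which held the highest value. Dynlrb2 in WKY was 5.05, 8.01, 7.41 and 6.63 CPM in mean at 8, 10, 16 and 24 wk, and at those ages its strain difference was not called.

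Daw1, which carries outer dynein arms into the cilium, was at 7.85, 7.83 and 3.87 CPM in WKY and at 1.11, 0.435, 2.48, 1.22, 0.222 and 2.44 CPM in SHR. The strains did not overlap (-2.24, edgeR adjusted p = 0.0041). Without rat 2 the fold change was -2.11 (edgeR adjusted p = 0.040). Without the 5 libraries it was -2.59, where the single WKY library left was rat 1, which held the highest Daw1 value. Ttc25, the other docking and import gene tested, was at 2.84, 6.48 and 2.2 CPM in WKY and at 0.777 to 1.58 CPM in SHR (median 0.971), again without overlap (-1.79, edgeR adjusted p = 0.011). Ttc25 was not called without rat 2 (-1.20, edgeR adjusted p = 0.36), and its fold change was -1.45 without the 5 libraries.

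Among radial spoke genes, Rsph9 was at 50.4, 69.4 and 62.6 CPM in WKY and at 51.7, 34.2, 48.9, 31.8, 23.7 and 25.9 CPM in SHR. SHR rat 1 overlapped with WKY rat 1 (log2 fold change -0.70 ± 0.21, edgeR adjusted p = 0.05, just inside the threshold), and the call was lost in 27 of 34 fits that left out 1 library. Wdr66, a calmodulin-binding protein at the spoke base, was at 1.64, 7.83 and 4.5 CPM in WKY and at 0.222 to 1.69 CPM in SHR, and 1 SHR overlapped (-2.60 ± 0.54, edgeR adjusted p = 0.0016). Wdr63 was at 7.09, 17.9 and 8.48 CPM in WKY and at 1.11 to 5.30 CPM in SHR, without overlap (-1.83 ± 0.38, edgeR adjusted p = 0.0018). By role, 4 of 8 radial spoke genes and 2 of 5 inner arm chains were called lower with all libraries in the fit.

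Of the outer arm genes, Dnai1 was at 10.6, 12.7 and 9.53 CPM in WKY and at 6.46, 7.29, 8.34, 8.04, 4.99 and 4.89 CPM in SHR, without overlap, and was called (-0.68 ± 0.20, edgeR adjusted p = 0.049). Without rat 2 it was not called (-0.57, edgeR adjusted p = 0.34), and the call was lost in 22 of 34 fits that left out 1 library. Dnah12 had a log2 fold change of -0.93 (edgeR adjusted p = 0.21) and Drc3 of -0.52 (edgeR adjusted p = 0.075). Cfap69 differed little, at 9.0 to 17.4 CPM in WKY and 9.26 to 11.8 CPM in SHR (-0.19, edgeR adjusted p = 0.85, and 0.09 without rat 2). Called lower with all libraries in the fit were 2 of 6 outer arm chains, 2 of 5 genes of the regulatory complex and ruler, and 1 of 3 central apparatus genes. Higher in sign and not called were 5 genes, Tekt5 (0.33), Dnah5 (0.30), Rsph6a (0.03), Cfap36 (0.03) and Cfap410 (0.00).

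**Figure D4:**
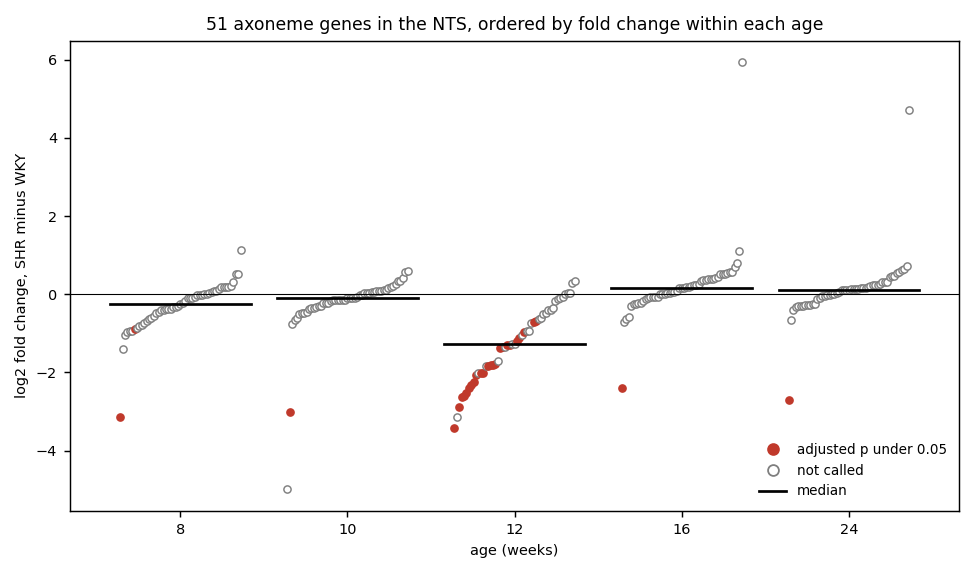
Log2 fold changes between SHR and WKY of the 51 axoneme genes tested in the NTS, ordered within each age, with genes called lower in red and a line at the median. The points at 12 wk lie mostly below 0 (median -1.27, 24 called), and the far-out open points at 10, 16 and 24 wk are Rsph4a, which was at 0 in most libraries.

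Whether the strain difference at 12 wk departed from that at the other ages was tested directly. The interaction was lower in sign at 12 wk for 49 of 51 genes, with a median of -1.16, and 34 had an unadjusted p under 0.05. None passed the adjusted threshold in edgeR or in DESeq2 (0 of 51, background 0%), and 12 had an unadjusted p under 0.05 without rat 2 or without the 5 libraries. The group with the highest mean in the NTS was WKY at 12 wk for 40 of 51 genes, and within that group rat 2 was highest for 36 of 39 role-listed genes. Within WKY of 10 wk, rat 4 was highest for 35 of 39.

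The strain difference at 12 wk was also compared between regions in the fit with the rat as a block. Against the RVLM, 2 of 52 genes were called (background 0.235%), Dynlrb2 with a log2 difference of -2.93 (edgeR adjusted p = 0.026) and Cfap206 with 2.71 (edgeR adjusted p = 0.021). In the RVLM, Dynlrb2 was at 0.723 ± 0.169 CPM in WKY and 0.806 ± 0.391 CPM in SHR at 12 wk. Against the CVLM, Cfap206 alone was called (3.06, edgeR adjusted p = 0.011, background 0.0641%). With 1 rat of 12 wk left out, the count against the RVLM moved by over 1.5 times in 7 of 9 fits, down to 0 without SHR rat 2. Against the CVLM the count moved in 4 of 9 such fits, down to 0. Leaving out the 5 rats whose NTS libraries were rich in choroid plexus markers kept a single WKY rat at 12 wk, so that fit cannot decide whether these calls hold.

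Related lists in the NTS at 12 wk were read over all libraries, and were not refitted without the 5 libraries rich in choroid plexus markers. Called lower in SHR were 6 of 21 other axoneme genes (median log2 fold change -0.84) and 2 of 10 dynein arm assembly factors (-1.11). By edgeR, 0 were called of 21 intraflagellar transport genes (-0.06, with 4 at an unadjusted p under 0.05), 24 primary cilium genes (-0.06, with 3), 8 multiciliation regulators (-0.28, with 2) and 10 cytoplasmic dynein genes (0.09, with 0). Markers of astrocytes, neurons, oligodendrocytes, microglia, endothelium and medullary autonomic neurons had 0 called genes by edgeR, with 0 to 2 per list at an unadjusted p under 0.05, and leptomeninges 1 of 6, lower.

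Cfap206 was lower in SHR at every age in every region, without overlap between the strains. In the NTS, it ranged from 24.7 to 48.9 CPM in WKY (median 36.2) and from 1.66 to 10.2 CPM in SHR (median 4.18). The log2 fold changes in age order were -3.13, -3.02, -3.43, -2.39 and -2.71. In the CVLM it ranged from 6.04 to 12.5 CPM in WKY (median 8.38) and from 0 to 1.22 CPM in SHR (median 0.122), and the fold changes were -4.34, -5.0, -6.50, -6.04 and -4.73. Counts in these SHR libraries were few or absent. In the RVLM it ranged from 6.22 to 14.2 CPM in WKY (median 9.95) and from 0 to 0.393 CPM in SHR (median 0.146), with fold changes of -6.06, -6.04, -6.18, -6.59 and -5.87. At the ventrolateral sites the SHR libraries held 0 to 13 counts (CVLM) and 0 to 5 counts (RVLM), so the size of these folds depends on few counts. At 12 wk in the NTS the values were 40.2, 48.9 and 41.4 CPM in WKY and 2.90, 2.72, 8.00, 3.97, 1.66 and 4.37 CPM in SHR (edgeR adjusted p = 6.3e-12).

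Its regional difference also depended on the strain. The NTS exceeded the RVLM by 1.63 on the log2 scale in WKY and by 4.86 in SHR, and the CVLM by 1.89 and 4.31. The strain difference was smaller in the NTS than in the RVLM at all 5 ages, by 2.96, 3.01, 2.71, 4.22 and 3.26 on the log2 scale, each called in edgeR over 14043 genes. Against the CVLM it was called at 12 wk (3.06) and 16 wk (3.69, edgeR adjusted p = 0.0017).

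**Figure D5:**
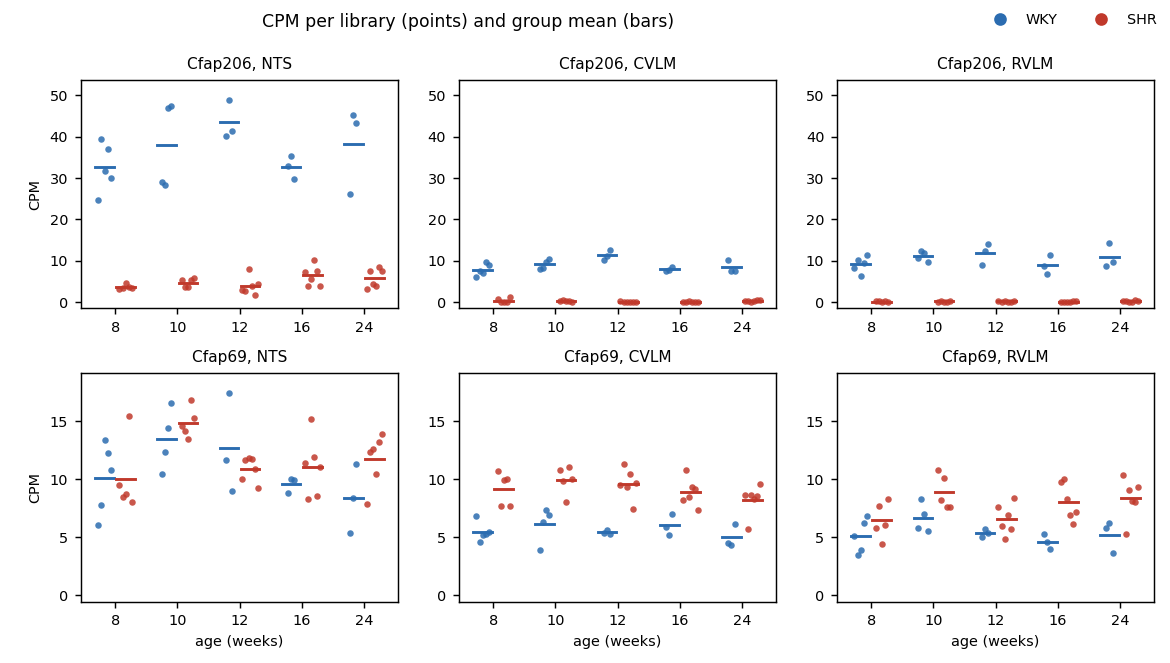
CPM of Cfap206 and Cfap69 in each library by region, age (weeks) and strain, with bars for group means. Cfap206 in SHR stays at or below 10.2 CPM in the NTS and 1.22 CPM in the other regions, below every WKY library of its region, and Cfap69 in the CVLM is mostly higher in SHR.

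Cfap69 was higher in SHR in the CVLM. At 8 wk it was at 9.19 ± 1.42 CPM (SD, n = 5) in SHR and 5.48 ± 0.825 CPM (n = 5) in WKY, and at 12 wk at 9.61 ± 1.27 CPM (n = 6) and 5.46 ± 0.171 CPM (n = 3). The strains did not overlap at 4 of 5 ages, and at 24 wk 1 SHR, at 5.70 CPM, lay below the highest WKY rat at 6.17 CPM. The log2 fold changes at 8, 10, 12 and 24 wk were 0.69, 0.68, 0.80 and 0.63 (edgeR adjusted p = 0.0031, 0.0067, 0.0043 and 0.026), and 0.53 at 16 wk was not called (edgeR adjusted p = 0.15). In the RVLM it was higher in sign at all 5 ages and not called at any, with 0.78 at 16 wk (edgeR adjusted p = 0.10).

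Few other strain differences were called in the ventrolateral medulla. In the CVLM, Cfap206 was the 1 gene of 29 that was lower, at each age. Higher in SHR were 3 of 29 at 8 wk (background 3.17% higher, 7.64% in either direction) and 2 at 10 wk (1.48% and 3.18%). At 12 wk 1 was higher (1.07% and 2.62%), at 16 wk 0 (1.14% and 2.27%) and at 24 wk 1 again (2.21% and 7.13%). Drc1 was higher at 8 wk, at 2.43 to 4.57 CPM in SHR against 1.32 to 2.52 CPM in WKY (0.93, edgeR adjusted p = 0.013), with a slight overlap. At 10 wk it was at 2.40 to 3.38 against 1.36 to 2.02 CPM, without overlap (0.92, edgeR adjusted p = 0.032). Dnah5, an outer arm heavy chain, was higher at 8 wk, at 2.25 to 4.55 CPM in SHR and 0.719 to 1.91 CPM in WKY, without overlap (1.07, edgeR adjusted p = 0.045). In the RVLM, 0 were higher at any age and 2 of 29 were lower at 8 wk (background 5.41% lower, 9.78% in either direction), Cfap206 and Ccdc39. Ccdc39 was at 3.22 to 6.06 CPM in SHR and 5.41 to 8.43 CPM in WKY, with overlap (-0.74, edgeR adjusted p = 0.019). Cfap206 alone was called at 10 wk (background in either direction 2.3%), 12 wk (1.7%), 16 wk (1.65%) and 24 wk (2.24%). In the NTS, Cfap300, a factor for dynein arm assembly, was lower at 8 wk as well as at 12 wk, at 2.39 to 5.10 CPM in SHR and 4.70 to 12.6 CPM in WKY at 8 wk, with overlap (-0.89, edgeR adjusted p = 0.043). Without the 5 libraries rich in choroid plexus markers Cfap300 was not called at 8 wk. Library names end in 1 or 2, a number whose meaning is not given. At 8 wk every SHR name ends in 1 while WKY names end in either, so strain partly coincides with this number at that age. Its part in the 8 wk calls of single genes is not given here.

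Changes with age within a strain were tested over the 5 ages together, and a fold change is that with the largest departure from 8 wk. In the NTS of WKY, 9 of 51 genes were called (background 12.5%), all of them with the largest departure at 12 wk and higher than at 8 wk. They were Dnah9 (1.17), Dynlrb2 (2.35, edgeR adjusted p = 0.021), Wdr63 (1.13), Tekt1 (0.92), Cfap100 (2.86), Drc3 (0.59), Tekt3 (2.05), Cfap126 (2.2) and Dnah2 (1.3). Without WKY rat 2 of 12 wk, 0 were called, and without the 5 libraries rich in choroid plexus markers 1 was.

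None of the age effects in either strain or any region was called once the number that ends each library's name, 1 or 2, entered the fit as a factor. Its meaning is not given in the sources used here, and every library of 10 wk ends in 2, while at 8 wk all SHR and 2 of 5 WKY libraries end in 1. These calls and those that follow are therefore not separate from that number.

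In the NTS of SHR, Dnah12 alone was called of 51 (background 18.7%). It was at 3.91 to 6.58 CPM at 8 wk and 12.2 to 16.6 CPM at 10 wk, without overlap (1.44, edgeR adjusted p = 0.011), and its means at 12, 16 and 24 wk were 7.49, 8.04 and 12.2 CPM. Since the SHR libraries of 8 wk and of 10 wk carry different numbers, age and number cannot be told apart between these groups.

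In the CVLM, Drc3 and Cfap52, a microtubule inner protein, were called of 29 in WKY (background 22.2%) and in SHR (background 20%). Cfap52 was at 2.82 to 5.82 CPM at 8 wk and 1.80 to 2.31 CPM at 24 wk in WKY (-1.08), and at 3.93 to 7.45 CPM at 8 wk and 1.3 to 4.03 CPM at 16 wk in SHR (-1.05). In WKY it fell without overlap, and in SHR a slight overlap remained. Without WKY rat 1 or rat 2 of 24 wk, neither gene was called in WKY. Drc3 in WKY was lowest in mean at 10 wk (5.83 CPM) and highest at 24 wk (9.02 CPM), and in SHR it was lowest at 12 wk (6.72 CPM) and highest at 24 wk (9.25 CPM).

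In the RVLM of WKY, Rsph9 and Cfap300 were called of 29 (background 6.79%). Rsph9 was at 0.948 to 2.47 CPM at 8 wk and at 1.75 to 7.52 CPM at 16 wk (1.52, edgeR adjusted p = 0.026), and Cfap300 was at 1.4 to 3.19 CPM at 8 wk and 2.97 to 4.92 CPM at 10 wk (0.82, edgeR adjusted p = 0.041). Both overlapped between these ages, and neither was called without WKY rat 2 or rat 4 of 10 wk or without WKY rat 1 or rat 3 of 16 wk. In the RVLM of SHR, Cfap52 and Rsph6a, a spoke head protein known from sperm, were called of 29 (background 14.1%), with -1.18 at 24 wk (edgeR adjusted p = 0.018) and 1.22 at 16 wk (edgeR adjusted p = 0.039). Cfap52 was at 4.2 to 6.35 CPM at 8 wk and 1.28 to 3.73 CPM at 24 wk, without overlap. Rsph6a was at 0.278 to 0.991 CPM at 8 wk and 0.865 to 2.46 CPM at 16 wk, with overlap.

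The filter was passed in no region by 15 genes, which were not tested, namely Dnah7, Dnah8, Dnah17, Armc4, Rsph14, Spag16, Spag17, Cfap58, Cfap58l1, Cfap73, Cfap74, Cfap97d1, Cfap99, Cfap157 and Cfap221. Of these, 13 had their highest mean CPM in the NTS and 1 each in the other regions. Spag17, a central apparatus protein, had 342 counts over the NTS libraries, against 14 for the CVLM and 1 for the RVLM, and Cfap73 had 275, 2 and 0. Dnah8, an outer arm heavy chain known from sperm, differed by strain at this low level, and this is given as a description. In the NTS it was at 0 to 0.75 CPM in WKY and 0 to 1.6 CPM in SHR. The CVLM had 0 to 0.79 and 0.26 to 1.5 CPM, and the RVLM 0 to 0.28 and 0.25 to 2.1 CPM. Medians were higher in SHR in all 3 regions, and the strains overlapped.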

How the data were processed

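RNA was sequenced from punches of each of 46 female rats, 1 library for the NTS, 1 for the CVLM and 1 for the RVLM. The authors mapped reads to rn6 with STAR inside RSEM, and the deposited values are estimated counts per gene, also called expected counts, that were not normalized. Their methods name ComBat_seq as a batch adjustment. No source states whether these counts carry it. Of the values, 5.02% (NTS), 4.95% (CVLM) and 4.88% (RVLM) were not whole, and all were rounded. In 2 CVLM libraries the title and another label gave conflicting ages, and an alternative left them out.

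Analyses used R 4.3.3 with edgeR 4.0.16 and DESeq2 1.42.0, and Python 3.11.15 with matplotlib 3.10.9. Genes whose largest rlog value reached 3.5 in a region were tested there, which left 13793 (NTS), 13408 (CVLM) and 13411 (RVLM). Of the 67 axoneme genes, 51, 29 and 29 passed, 52 in at least 1 region. After TMM normalization, edgeR's robust quasi-likelihood model was fitted in each region, with a coefficient for each of 10 strain and age groups. Regions were compared in a joint fit with the rat as a block. The Benjamini-Hochberg adjustment ran over all genes tested, and adjusted p under 0.05 was a call. CPM are counts scaled to a library total of 1000000. Values at zero or a few counts have fitted folds that depend on the prior count. The scripts were tested on simulated counts.

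Any of the 67 genes could be named. Values per library were given for 1 gene per role list and for genes among the 3 smallest adjusted p in each direction per comparison, and Dynlrb2, Daw1 and other genes with such values were chosen after their values were seen. The genes and the pathway and marker lists were chosen with earlier results of these data known. WKY and SHR rats share replicate numbers in the labels, and no source says that a number marks a shared litter or day. Deviations from group means of same-numbered rats had a median correlation of 0.222 in the NTS (-0.222 to 0.443 over 18 pairs). A pairing required every pair to exceed 0.1, which 12 did, and the main fit has no such block. Replicates are separate rats. Alternatives were DESeq2, its size factors, no filter, a stricter call, each age alone, and the replicate number or the library-name number as a factor. Libraries were also left out 1 at a time, 34 of 46 in the NTS and 28 of 46 in each other region. In these fits no SHR library of 16 or 24 wk was left out, and outside the NTS no SHR library of 12 wk. In the joint fit only the 9 rats of 12 wk were left out in turn, for the strain effect at 12 wk.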

Additional observations from a re-analysis of the deposited data

Results flagged for a closer look

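A library far from the others of its group was found in 13 of 147 groups of 4 to 6 rats tested for 7 genes, and chance flags about 1 in 20 such groups. The flagged values in the NTS and CVLM were those of Cfap69 in the NTS of SHR rat 4 at 8 wk (15.5 CPM, nearest 9.49 CPM), Cfap69 in the CVLM of SHR rat 2 at 24 wk (5.70 CPM, nearest 8.26 CPM), Ttc25 in the CVLM of WKY rat 4 at 8 wk (0.152 CPM, nearest 0.361 CPM), and Rsph9 in the CVLM of WKY rat 2 at 8 wk (12.4 CPM, nearest 6.63 CPM) and of SHR rat 3 at 10 wk (4.23 CPM, nearest 6.46 CPM).

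In the RVLM, WKY rat 3 at 8 wk stood apart for Dnai1 (5.16 CPM, nearest 4.51 CPM) and SHR rat 2 at 8 wk for Tekt1 (7.87 CPM, nearest 5.45 CPM). Ttc25 was low in WKY rat 4 at 8 wk (0.573 CPM, nearest 1.57 CPM) and high in SHR rat 4 at 16 wk (0.865 CPM, nearest 0.309 CPM). Dnah12 was low in WKY rat 1 at 10 wk (0.126 CPM, nearest 0.970 CPM) and high in SHR rat 5 at 8 wk (0.763 CPM, nearest 0.370 CPM), in SHR rat 6 at 12 wk (4.47 CPM, nearest 1.62 CPM) and in SHR rat 6 at 24 wk (1.63 CPM, nearest 0.849 CPM).

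Strain differences that differed between regions by edgeR's test of the difference were found for 3 genes. For Cfap206 the log2 difference between NTS and RVLM was 2.96, 3.01, 2.71, 4.22 and 3.26 in age order from 8 wk to 24 wk, and between NTS and CVLM 3.06 at 12 wk and 3.69 at 16 wk. For Dynlrb2 it was -2.93 against the RVLM at 12 wk. For Cfap36 it was 0.49 against the RVLM at 8 wk (edgeR adjusted p = 0.048), where the NTS means were 211 CPM in SHR and 190 CPM in WKY and the RVLM means were 195 CPM in SHR and 217 CPM in WKY.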

How the results depend on the processing

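Of 114 counts under alternatives other than leaving out a library, 74 stayed within 1.5 times the reported count, and of 356 with 1 library left out, 284 did. Counts of genes called between regions were not tested by leaving out a library. Under the other alternatives, those between NTS and RVLM ran from 35 to 61 (reported 49). Those between NTS and CVLM ran from 34 to 57 (45), and all lay within that limit. For single genes at 12 wk in the NTS, leaving out a library kept the direction and side of the threshold in 184 of 238 cases. Most of the others were the calls of Rsph9, lost in 27 of 34 such fits, and Dnai1, lost in 22 of 34. With all libraries these 2 genes lay just inside the threshold (edgeR adjusted p = 0.0496 and 0.0488). The cause of the losses was not tested.

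With 1 library left out, the strain count in the NTS over all ages (24) ran from 4 without WKY 12 wk rat 2 to 28 without SHR 12 wk rat 3, and that at 12 wk (24) from 3 to 28 with the same libraries. The interaction of 12 wk with the other ages stayed at 0. Counts of age effects ran from 0 (without WKY 12 wk rat 2) to 12 in the NTS of WKY (9), from 1 to 4 (without SHR 12 wk rat 3) in the NTS of SHR (1), from 0 (without WKY 24 wk rat 1 or 2) to 5 (without WKY 8 wk rat 2) in the CVLM of WKY (2), from 1 to 3 in the CVLM of SHR (2), from 0 (without WKY 10 wk rat 2 or 4 or 16 wk rat 1 or 3) to 3 in the RVLM of WKY (2) and from 1 to 4 in the RVLM of SHR (2). Strain counts ran from 3 to 5 in the CVLM (4) and from 1 to 3 in the RVLM (2). Regional differences of the strain effect at 12 wk ran from 0 to 3 against the RVLM (2) and from 0 to 1 against the CVLM (1). Log2 fold changes at 12 wk in the NTS ran from -0.79 to -0.57 for Dnai1, -2.08 to -1.20 for Ttc25, -1.24 to -0.53 for Dnah12, -0.87 to -0.61 for Rsph9, -0.68 to -0.38 for Drc3, -1.16 to -0.45 for Tekt1 and -0.39 to 0.09 for Cfap69, which reversed to 0.0938 without WKY 12 wk rat 2.

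Under a stricter call (adjusted p no higher than 0.01 with a fold of 2 or more), 8 genes were called between strains in the NTS, all 8 at 12 wk, 1 in the CVLM and 1 in the RVLM. Age effects were then 0 in the NTS of both strains, 0 in WKY and 1 in SHR in the CVLM, and 0 in both in the RVLM, while 6 genes differed between CVLM and RVLM, and regional differences of the strain effect were 0 and 0. How many of all genes met this stricter rule was not counted, so these counts have no background beside them. With each age fitted alone, strain counts were 3 in the NTS, 3 at 12 wk, 1 in the CVLM and 1 in the RVLM. The library-name number as a factor left 0 age effects in each region and strain. DESeq2 gave 5 age effects in the NTS of SHR, and its size factors gave 1 in the CVLM of SHR. Without a filter there were 1 age effect in the CVLM of SHR, 4 strain differences in the RVLM, and 1 age effect in the RVLM of each strain. Without the 2 CVLM libraries of conflicting age, the CVLM of SHR had 1. In WKY rats alone, 15 genes differed between CVLM and RVLM. Without the libraries rich in choroid plexus markers, an alternative chosen after seeing the data, age effects in the NTS were 3 in SHR. That alternative kept 1 WKY rat at 12 wk, and counts that involve this group are left out here.

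The replicate number as a block gave 3 age effects in the NTS of SHR and 1 in the CVLM of WKY, and moved no other count by over 1.5 times. Correlations of same-numbered rats over 18 pairs per region were above 0.1 in 12 pairs of the NTS, 13 of the CVLM and 7 of the RVLM. At 12 wk in the NTS all 3 pairs exceeded it (0.223, 0.115 and 0.343), and the count there was 19 with the block. Since not every pair exceeded 0.1 and no source ties the numbers to a litter or day, the strains were not taken as paired. Without the rat as a block in the joint fit, 1 gene had a regional difference of the strain effect against the RVLM.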
